A study of Homo sapiens with 12 samples.

Results

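BE(2)-C and Kelly are human neuroblastoma cell lines, and both carry amplified MYCN, the oncogene that marks aggressive disease. The comparison described here sets 3 arrays of BE(2)-C cells against 3 arrays of Kelly cells, all 6 treated for 24 h with 1 µM JQ1. These are the JQ1-treated arrays named in the sample titles, 6 of the 12 in the series. The other 6 arrays hold 3 samples of each line treated with DMSO, the vehicle of JQ1, and are used to say which differences between the lines were present without the drug. Both lines grew in DMEM with fetal bovine serum, and the labels name no genetic change made for the experiment. Each line stands for 1 tumour, so a difference between them belongs to these lines and not to a class of tumours. All 18132 genes that the Affymetrix PrimeView array reads with a probe set naming a single gene were compared.

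BET proteins such as BRD2 and BRD3 bind acetylated histones through their bromodomains and help RNA polymerase II to leave promoters and elongate. JQ1 occupies the bromodomain pocket, and genes that depend on large enhancers, often genes of cell identity, are known for losing transcription when it is added. Neuroblastoma lines are commonly placed between an adrenergic state, kept by transcription factors of the sympathetic lineage such as PHOX2A, HAND2 and GATA3, and a mesenchymal state with genes of the cytoskeleton and the extracellular matrix. The question was which differences between the lines remained, vanished or appeared under BET inhibition.

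Most line differences seen with DMSO were also present with JQ1. Of the 2571 genes that differed between the lines with DMSO, 1841 (71.6%) differed in the same direction with JQ1. Another 22 lost the difference, 18 genes gained one and 4 reversed it, each with a change of the difference that itself passed the test; these counts depend strongly on the fit, as given with them. The neuropeptide genes VIP and NPY, the calcium-binding protein gene S100A6 and the galectin gene LGALS1 were among the 10 genes furthest above Kelly in BE(2)-C. CNTNAP2, SOX11 and PRAME led the genes higher in Kelly. The receptor gene OPRL1 passed from higher in Kelly to higher in BE(2)-C.

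Of 9 measured adrenergic neuroblastoma markers, 3 were called higher in BE(2)-C and 2 higher in Kelly with JQ1, where 22% of all genes were called between the lines. CHGA, the secretory granule protein, was high in both and read 14.12, 14.07 and 14.16 in the Kelly arrays with JQ1 and 14.12, 14.11 and 14.03 in the BE(2)-C arrays, as log2 of the deposited intensity, the scale of all levels below. HAND2 read 13.21, 13.11 and 12.97 in Kelly and 13.07, 13.06 and 12.95 in BE(2)-C. Both genes overlapped between the lines. The 2 markers called higher in Kelly were DBH and ISL1, and DDC and PHOX2A were among the 3 called higher in BE(2)-C. Their differences are given below with their groups. None of 6 measured haematopoietic markers was called between the lines, and the leukocyte marker PTPRC lay within the range of background probe sets of low G and C content, at means of 4.35 in Kelly and 3.84 in BE(2)-C with JQ1. Of 8 epithelial markers 1 was called, KRT19, and of 10 Schwann cell and fibroblast markers 1, S100B, both higher in BE(2)-C. In such bulk samples a smaller share of cells of 1 kind and less RNA per cell cannot be told apart.

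Replicate arrays correlated at 0.951 to 0.995, and a Kelly with a BE(2)-C array at 0.887 to 0.951 under JQ1. Background control probe sets with 3 to 15 G or C bases read 3.26 to 4.90 and those with 16 to 25 read 4.61 to 11.78, so background depends on base content. A low level may hold no signal, and a fold against it then depends on the background. The hybridization control signal, from bacterial transcripts added to each labelled sample, averaged 12.94 ± 0.69 (SD, n = 3) in Kelly and 11.41 ± 1.20 (SD, n = 3) in BE(2)-C with JQ1. That gap of -1.53 had an exact permutation p of 0.2, two-sided, where 3 against 3 arrays allow no p below 0.1. The 3′ minus 5′ signal of ACTB, a measure of RNA integrity and labelling, was 1.72 ± 0.50 (SD, n = 3) in Kelly and 0.89 ± 0.08 (SD, n = 3) in BE(2)-C, at an exact p of 0.1. With DMSO the ACTB values were 1.67 in Kelly and 0.91 in BE(2)-C, at an exact permutation p of 0.2. The same measure of GAPDH was 0.39 ± 0.16 (SD, n = 3) in Kelly and 0.17 ± 0.02 (SD, n = 3) in BE(2)-C with JQ1, at an exact permutation p of 0.1. With DMSO it was 0.26 and 0.27. Fits that use the control signal are given beside the counts that follow. The part of the ACTB and GAPDH gaps in the line differences and their change was not tested. The labels do not say whether the 3 samples of a group were separate cultures, so the p-values rest on sample-to-sample spread that may be technical.

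A gene was called where its Benjamini-Hochberg adjusted p in limma's test, over all 44988 probe sets that name 1 gene, was below 0.05. With JQ1 this held for 3998 genes, 22% of those tested, of which 2252 (12.4%) were higher in BE(2)-C and 1746 (9.63%) higher in Kelly. With DMSO it held for 2571 genes (14.2%), 1216 (6.71%) higher in BE(2)-C and 1355 (7.47%) higher in Kelly. Counted by probe set the shares were 20.2% with JQ1, 12.3% with DMSO and 0.327% for a change between them. At 2-fold or more the counts with JQ1 were 1433 and 764. The median difference of all genes, BE(2)-C minus Kelly, was -0.15 with JQ1 and -0.04 with DMSO, and the median SE of a difference was 0.21. The surplus of BE(2)-C-higher calls turned around with quantile normalization, to 1968 against 2425, and without the 3 arrays of highest control signal, to 2863 against 3410. With the control signal in the model the median difference of all genes was -0.04 and the split 2253 against 2127. The JQ1 count fell to 2541 without BE(2)-C JQ1 replicate 1 and to 2316 without BE(2)-C JQ1 replicate 2. The gene lists used here were chosen with earlier results of these data known. A share called in a list, set beside that of all genes, is a description and no test.

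The differences with and without the drug ran together, and they come from separate arrays. Across the 18132 genes the line difference with JQ1 and that with DMSO correlated at r = 0.765 (Spearman's rho 0.579), a description over genes, which are not independent. Of the 1216 genes called higher in BE(2)-C with DMSO, 97.2% had the same sign with JQ1 and 80.8% were called again, with a median difference of 1.18 with DMSO and 1.22 with JQ1. Of the 1355 called higher in Kelly, 95.2% had the same sign and 63.3% were called again, and their median size went from 1.07 to 0.81. Among genes at least 4-fold apart with DMSO, 94.1% of those higher in BE(2)-C and 90.6% of those higher in Kelly were called again. The remaining DMSO calls, 704 genes, missed the threshold with JQ1 without a called change of the difference, and 2135 genes passed with JQ1 alone in the same way. For those 2 sets a p on either side of the threshold does not show that the lines differed more or less with JQ1.

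**Figure D1:**
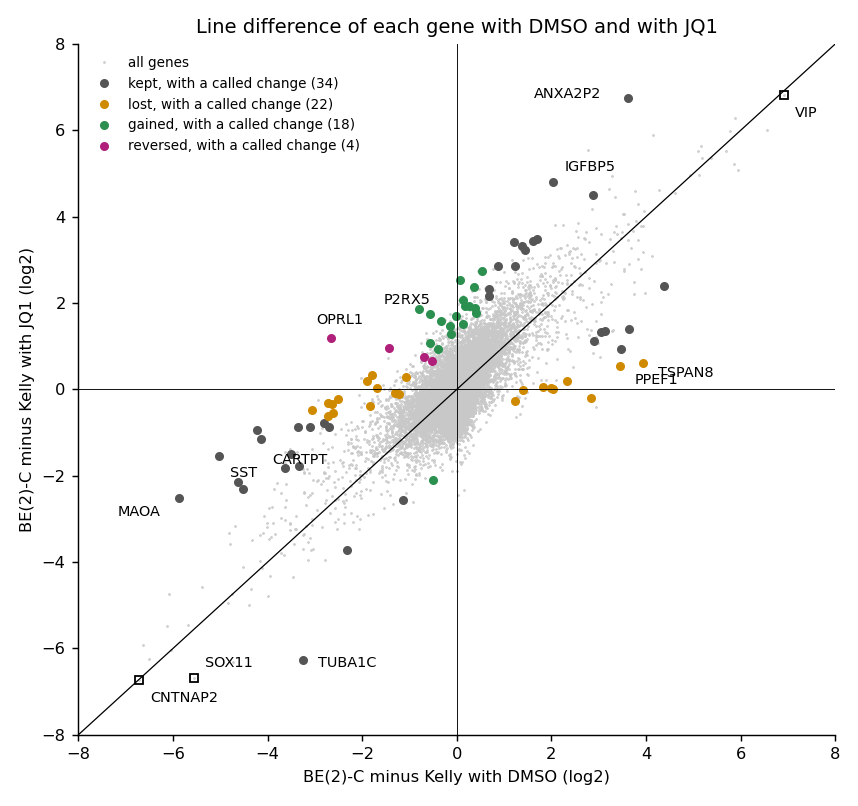
Line difference (BE(2)-C minus Kelly, log2) of each gene with DMSO on the horizontal axis and with JQ1 on the vertical axis, where coloured points are the 78 genes whose difference itself changed by limma's test. Most genes lie along the diagonal, while OPRL1 sits at -2.66 with DMSO and 1.19 with JQ1, and TUBA1C lies far below it.

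The genes furthest apart with JQ1 were far apart with DMSO too. VIP, which encodes the vasoactive intestinal peptide, read 4.04, 4.20 and 4.49 in the Kelly arrays with JQ1 and 11.12, 11.22 and 10.86 in BE(2)-C, a 113-fold difference (log2 6.82, SE 0.24, limma adjusted p = 6.65e-09). Its difference with DMSO was 6.91. NPY, the precursor of neuropeptide Y, read 5.28, 5.10 and 5.01 in Kelly and 10.71, 10.46 and 10.82 in BE(2)-C, a difference of 5.53 with JQ1 and 5.10 with DMSO. The Kelly arrays of VIP lay within 3.26 to 4.9, the range of background probe sets with 3 to 15 G or C bases. Those of NPY lay above that range. Background probe sets with 16 to 25 G or C bases read 4.61 to 11.78, a range that also holds the BE(2)-C arrays. In both genes no BE(2)-C array came near the Kelly arrays. EDIL3, a secreted integrin ligand, stood at 6.29, and B3GALNT1, a glycosyltransferase, read 4.14, 4.27 and 4.65 in Kelly and 10.41, 10.54 and 10.10 in BE(2)-C. ENPP2, which makes lysophosphatidic acid, stood at 5.64, and RELN, the matrix protein reelin of migrating neurons, at 5.21. On its brightest probe set none of these 6 genes had a called change of its difference, and all 6 kept their JQ1 call in every alternative tried. A dimmer probe set of RELN had a called change of -1.40 (limma adjusted p = 0.0444). Some other wide differences grew with JQ1. ANXA2P2 went from 3.62 with DMSO to 6.75, a called change of 3.14 (limma adjusted p = 0.032). MTUS1 went from 2.78 to 5.55 and LGALS1 from 4.14 to 5.90, changes that did not pass (limma adjusted p = 0.0524 and 0.0879). S100A6 and TSPYL5 moved little, from 5.77 to 5.99 and from 5.70 to 5.53.

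On the Kelly side other peptide genes came closer between the lines with JQ1. SST, the precursor of somatostatin, read 9.30, 9.47 and 8.60 in Kelly with DMSO and 6.26, 5.76 and 5.07 with JQ1. In BE(2)-C it read 4.06, 4.22 and 4.00 and 4.24, 4.10 and 4.16, levels that background probe sets also reach. The Kelly arrays stayed above the BE(2)-C arrays, but the difference shrank from 32.7-fold to 2.9-fold (-5.03 to -1.54, change 3.50, SE 0.40, limma adjusted p = 0.00348). CARTPT, the precursor of the CART peptide, read 9.14, 9.20 and 8.50 in Kelly with DMSO and 5.75, 5.75 and 5.65 with JQ1, and its difference shrank from -4.13 to -1.14 (change adjusted p = 0.00117). VIP and NPY, on the BE(2)-C side, had changes of -0.09 and 0.43. Of 24 measured granin and neuropeptide genes, 8 were higher in BE(2)-C and 4 higher in Kelly with JQ1, 50% called beside 22% of all genes, and 11 of the 12 were kept. SCG2, a granin, stood at 2.75 and CPE, the carboxypeptidase that trims peptide precursors, at -3.97.

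Because these 4 peptide genes part so widely between the lines, their promoters are shown, each the 250 bases before the start of the gene from RefSeq, GRCh38.p14, 5′ to 3′ on the gene's strand. Capitals mark the cAMP response element TGACGTCA and the TATA box TATAAA on either strand; CACGTG and CAGCTG, both E-boxes, were searched as well and are absent from these 4 windows. The peptide genes SST and VIP are known for control by cAMP.
SST (chr3:187670395-187670644, minus strand): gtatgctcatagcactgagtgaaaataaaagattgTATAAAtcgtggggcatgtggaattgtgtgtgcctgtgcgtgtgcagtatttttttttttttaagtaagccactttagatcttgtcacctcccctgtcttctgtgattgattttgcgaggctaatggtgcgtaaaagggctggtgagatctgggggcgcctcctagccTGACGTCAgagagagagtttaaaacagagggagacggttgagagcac
CARTPT (chr5:71719025-71719274, plus strand): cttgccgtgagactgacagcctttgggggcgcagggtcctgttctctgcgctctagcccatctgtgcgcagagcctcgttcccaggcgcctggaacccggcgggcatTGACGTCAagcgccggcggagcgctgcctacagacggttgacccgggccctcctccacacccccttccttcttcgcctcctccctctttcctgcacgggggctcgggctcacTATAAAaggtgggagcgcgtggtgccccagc
VIP (chr6:152750547-152750796, plus strand): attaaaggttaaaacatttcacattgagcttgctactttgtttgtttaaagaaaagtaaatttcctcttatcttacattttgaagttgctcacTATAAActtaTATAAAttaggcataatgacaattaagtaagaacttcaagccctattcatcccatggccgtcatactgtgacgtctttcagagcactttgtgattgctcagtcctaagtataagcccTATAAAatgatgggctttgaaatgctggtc
NPY (chr7:24283940-24284189, plus strand): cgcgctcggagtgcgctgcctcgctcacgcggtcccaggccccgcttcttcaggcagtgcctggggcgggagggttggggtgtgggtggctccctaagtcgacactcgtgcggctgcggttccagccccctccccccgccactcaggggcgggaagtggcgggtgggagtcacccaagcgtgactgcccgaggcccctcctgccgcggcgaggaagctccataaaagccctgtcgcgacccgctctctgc
SST and CARTPT, whose Kelly-side differences shrank with JQ1, each hold TGACGTCA and TATAAA. VIP holds TATAAA 3 times without an exact TGACGTCA, and NPY holds neither exactly. Only exact matches were searched. The VIP window holds tgacgtct, which differs from TGACGTCA in the last base, and that of NPY holds cataaa. The lack of an exact match therefore does not show that VIP has no cAMP response element. The TATAAA of SST starts at -215 and that of CARTPT at -31. Among 14406 promoters matched to measured genes, 2.39% hold TGACGTCA and 8.77% hold TATAAA. Of the 18 matched promoters of the granin and neuropeptide group, 4 hold TGACGTCA, those of CHGA, VGF, SST and CARTPT, and CHGA and VGF had no called change. Of 56 matched genes with a called change, 2 hold it. A match describes letters and no bound factor.

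The widest difference on the Kelly side was that of CNTNAP2. This gene encodes a neurexin-family adhesion protein of axons. It read 11.70, 12.01 and 11.28 in Kelly with JQ1 and 4.97, 4.86 and 4.96 in BE(2)-C, a 106-fold difference (-6.73, SE 0.19, limma adjusted p = 1.55e-09). With DMSO that difference was -6.72, so JQ1 moved it by -0.02. SOX11, a transcription factor of immature neurons, read 11.25, 11.11 and 10.95 in Kelly and 4.55, 4.52 and 4.20 in BE(2)-C, at -6.68 with JQ1 against -5.56 with DMSO; the change of -1.12 did not pass (adjusted p = 0.127, limma). PRAME, an antigen otherwise of the germline, stood at -6.31, GTSF1, a piRNA pathway gene, at -6.24, and MAGEA10, another germline antigen, at -4.99. PLOD2, the collagen lysyl hydroxylase, stood at -6.04 and EPB41L3, a membrane skeleton protein, at -5.91. The 3 Kelly and 3 BE(2)-C arrays of each of these genes were well apart. The genes in the plot of single arrays were drawn from called genes without overlap with JQ1, so their separation follows from that choice. Without it, the arrays of the lines did not overlap in 49.9% of all genes with JQ1 and in 25.7% with DMSO.

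**Figure D2:**
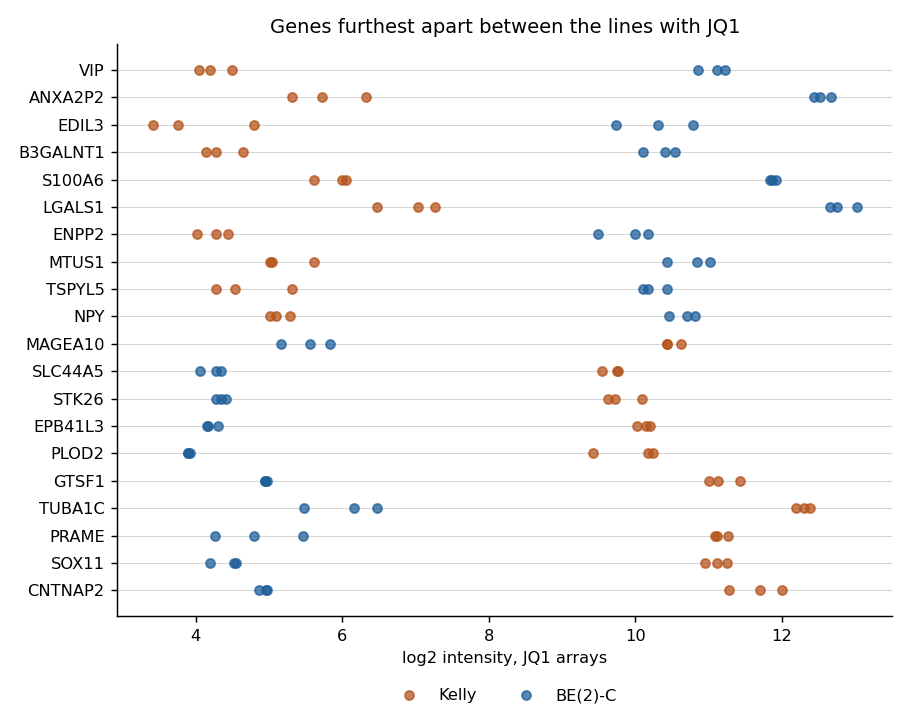
Log2 intensity of the 10 genes highest and the 10 lowest in BE(2)-C against Kelly with JQ1, 1 point for each of the 3 arrays of a line. VIP is at 11.12, 11.22 and 10.86 in BE(2)-C and CNTNAP2 at 11.70, 12.01 and 11.28 in Kelly. The 20 genes were drawn only from called genes whose arrays do not overlap between the lines with JQ1.

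A change of the line difference passed in 78 genes, 0.43% of those tested, and 2012 had an unadjusted p below 0.05. The difference moved toward BE(2)-C in 59 of them and toward Kelly in 19. Of the 78, 46 had a called JQ1 effect in Kelly alone, 26 in BE(2)-C alone and 6 in both; the response was a fall in Kelly in 47 and a fall in BE(2)-C in 20. In 31 genes a difference grew on the BE(2)-C side, and in 28 that were higher in Kelly with DMSO its size shrank, with OPRL1 and RIMBP2, which reversed, among them. A model with the control signal in it called 493 genes, all 78 among them, and without the 3 arrays of highest control signal 352 were called, 77 of the 78 among them. With a replicate block within Kelly, where arrays of 1 number deviated together, 137 genes were called, 76 of the 78 among them. Single arrays also moved this number. It was 32 without Kelly DMSO replicate 1, 44 without Kelly DMSO replicate 2, 42 without Kelly JQ1 replicate 2, 163 without Kelly DMSO replicate 3, 32 without BE(2)-C JQ1 replicate 1, 22 without BE(2)-C DMSO replicate 2, 27 without BE(2)-C JQ1 replicate 2, 41 without BE(2)-C DMSO replicate 3 and 34 without BE(2)-C JQ1 replicate 3. The counts lost, gained and reversed ranged over 7 to 42, 1 to 36 and 1 to 11 when 1 array was left out; the lowest came without BE(2)-C DMSO replicate 2 (for reversed, without BE(2)-C JQ1 replicate 1 or 2), the highest without Kelly DMSO replicate 3. In 18 of the 78 genes the change passed in every alternative in which the gene was read, and these carry the account below.

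**Figure D3:**
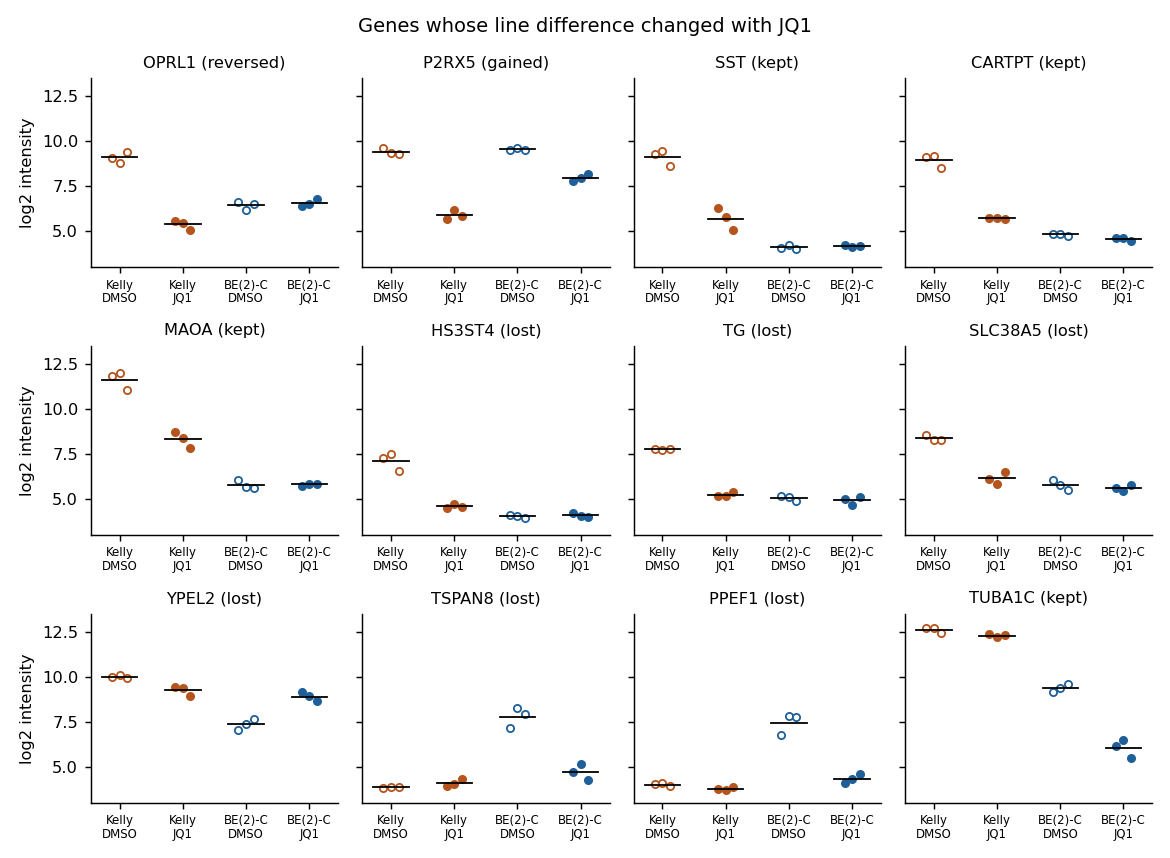
Log2 intensity of 12 genes whose line difference changed with JQ1 and kept that call in every alternative, 1 point for each array, open with DMSO and filled with JQ1, with bars at the means of 3 arrays. In OPRL1 the Kelly points drop below those of BE(2)-C, in P2RX5 the lines part with JQ1, and in TSPAN8 and PPEF1 the BE(2)-C points drop to near the Kelly points.

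The reversed gene with the largest change was OPRL1, which encodes the nociceptin receptor, a G protein-coupled relative of the opioid receptors. In Kelly it read 9.09, 8.81 and 9.41 with DMSO and 5.58, 5.45 and 5.08 with JQ1. In BE(2)-C it read 6.63, 6.17 and 6.51 with DMSO and 6.42, 6.49 and 6.77 with JQ1. Every Kelly array was above every BE(2)-C array with DMSO and below every one with JQ1. The line difference was -2.66 with DMSO and 1.19 with JQ1 (adjusted p = 0.00161), and it changed by 3.85 (SE 0.29, limma adjusted p = 0.000626). The dimmer probe set of the gene, at a mean of 5.36, had a difference of -0.38 with JQ1 and no called change, and with its probe sets averaged the JQ1 difference was 0.40 and not called. RIMBP2, a protein of the presynaptic active zone, went from -1.42 to 0.95, MAML3, a Notch coactivator, from -0.69 to 0.76, and BNIP3L, a mitophagy receptor, from -0.52 to 0.66. Leaving out 1 array removed the call of the change in 8, 11 and 10 of 12 fits for these 3 genes, with adjusted p up to 0.088, 0.178 and 0.164 in limma. With probe sets averaged, the JQ1 difference of MAML3 was -0.05. The other probe sets of BNIP3L did not reverse, at 0.06 to 0.35 with DMSO and 1.86 to 2.42 with JQ1. The other probe set of RIMBP2 had 0.42 and 1.07. Those of MAML3 had -0.30 to 0.18 with DMSO and -0.61 to 0.06 with JQ1. None of these had a called change, so each of these reversals was read from the brightest probe set alone.

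Among the differences that appeared with JQ1, that of P2RX5 held in every alternative. P2RX5 encodes a subunit of the ATP-gated P2X channels. It read 9.61, 9.36 and 9.27 in Kelly and 9.52, 9.60 and 9.52 in BE(2)-C with DMSO, where the lines overlapped. With JQ1 it read 5.70, 6.18 and 5.83 in Kelly and 7.80, 7.94 and 8.17 in BE(2)-C, apart by 2.07 (SE 0.17, 4.19-fold, limma adjusted p = 6.27e-06). The gene fell in both lines, by 3.51 in Kelly and by 1.58 in BE(2)-C, and the difference changed by 1.93 (adjusted p = 0.00567). The dimmer probe set of P2RX5 differed by 0.79 with JQ1, with an uncalled change of 0.53. Of the 18 gained differences, 17 were higher in BE(2)-C. KLF7, a transcription factor of sensory and sympathetic neurons, read 8.29, 7.92 and 7.49 in Kelly and 10.28, 10.30 and 10.25 in BE(2)-C with JQ1, after 9.54 and 9.91 on average with DMSO. CACNA2D2, an auxiliary subunit of calcium channels, and DKK3, a secreted protein of the Dickkopf family, went from -0.33 to 1.58 and from 0.39 to 1.89. Both rest on 1 probe set. The other 5 probe sets of DKK3 had JQ1 differences of -0.48 to -0.09, and with probe sets averaged its JQ1 difference was 0.07 and its change 0.04, neither called. The other probe set of CACNA2D2 had 0.29 and 0.61, also uncalled. FAM241A was the gene gained on the Kelly side, at -2.11. For KLF7, CACNA2D2, DKK3 and FAM241A the change lost its call in 9, 8, 8 and 6 of the 12 fits with 1 array left out, with limma adjusted p up to 0.115.

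A pair of replication-dependent histone genes were gained in BE(2)-C from the opposite movement, a rise in BE(2)-C. H2BC21 read 6.69, 7.41 and 7.41 in BE(2)-C with DMSO and 10.75, 11.21 and 10.25 with JQ1. In Kelly it read 6.59, 6.79 and 6.51 and 8.41, 7.90 and 7.66. It thus rose in both lines, by 3.56 in BE(2)-C and 1.36 in Kelly, and the line difference with JQ1 was 2.74 (limma adjusted p = 3.48e-05). H3C10 rose by 3.23 in BE(2)-C and differed by 2.53 between the lines with JQ1, against 0.06 with DMSO. Of 18 measured histone genes, 6 were higher in BE(2)-C and 2 higher in Kelly with JQ1 (44.4% called, beside 22% of all genes). With DMSO the counts were 1 and 0, where 14.2% of all genes were called. The median difference of the histone genes with JQ1 was 0.63 beside -0.15 for all genes. The change calls of H2BC21 and H3C10 were lost in 8 and 7 of the 12 fits with 1 array left out (limma adjusted p up to 0.137 and 0.0738), and histone genes are near copies whose probes can share transcripts.

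Differences on the Kelly side that were lost, thus no longer called with JQ1, were so through a fall in Kelly in 11 of 13 genes. HS3ST4, a heparan sulfate sulfotransferase, read 7.25, 7.49 and 6.57 in Kelly with DMSO and 4.50, 4.70 and 4.55 with JQ1, beside 4.11, 4.06 and 3.92 and 4.22, 4.06 and 4.00 in BE(2)-C. Its difference went from -3.07 to -0.49 (change 2.58, SE 0.29, limma adjusted p = 0.00348). TG, which encodes thyroglobulin, read 7.76, 7.72 and 7.79 in Kelly with DMSO and 5.18, 5.15 and 5.39 with JQ1, and its difference went from -2.72 to -0.32. SLC38A5, a glutamine transporter, read 8.57, 8.27 and 8.30 in Kelly with DMSO and 6.10, 5.84 and 6.51 with JQ1, and its difference went from -2.62 to -0.54 (change adjusted p = 0.0113). BE(2)-C had no called JQ1 effect in these 3 genes, at 0.06, -0.12 and -0.15. In all 3 every Kelly array with JQ1 still lay above every BE(2)-C array, so the differences were smaller and uncalled, not absent. YPEL2, a small conserved zinc-binding protein, met from the other side. It read 7.06, 7.36 and 7.67 in BE(2)-C with DMSO and 9.14, 8.92 and 8.66 with JQ1, and its difference went from -2.63 to -0.34. TP53INP1, a p53 target, rose in both lines, by 3.38 in BE(2)-C and 1.08 in Kelly, and its difference went from -2.52 to -0.21. Its change was not called without Kelly DMSO replicate 1, Kelly JQ1 replicate 2, BE(2)-C DMSO replicate 2, BE(2)-C JQ1 replicate 1 or BE(2)-C JQ1 replicate 2 (limma adjusted p up to 0.0665). The dimmer probe set of TP53INP1 had a DMSO difference of -0.12 and an uncalled change of -0.03.

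On the BE(2)-C side 9 differences were lost, through a fall in BE(2)-C. TSPAN8, a tetraspanin of the cell surface, read 7.17, 8.28 and 7.93 in BE(2)-C with DMSO and 4.73, 5.14 and 4.25 with JQ1. In Kelly it read 3.81, 3.85 and 3.89 and 3.94, 4.04 and 4.30. The difference went from 3.94 to 0.61 (change -3.33, SE 0.39, limma adjusted p = 0.00376), and 1 BE(2)-C array with JQ1 lay below the highest Kelly array. PPEF1, a calcium-binding phosphatase, read 6.77, 7.82 and 7.76 in BE(2)-C with DMSO and 4.09, 4.30 and 4.57 with JQ1, beside 4.01, 4.10 and 3.90 and 3.77, 3.68 and 3.85 in Kelly, so that the lines stayed apart with JQ1 by an uncalled 0.55. ENG, the TGF-beta coreceptor endoglin, went from 2.32 to 0.19 and FGL1, a secreted fibrinogen-like protein, from 2.83 to -0.21. Both changes missed the threshold only without BE(2)-C DMSO replicate 2, at a limma adjusted p of 0.0514. DCN, the matrix proteoglycan decorin and a fibroblast marker of the list above, went from 1.99 to 0.04; the change was uncalled in 5 of 12 fits (limma adjusted p up to 0.0611), and it was -0.11 when probe sets that can match several transcripts (IDs ending in _s_at or _x_at) were left out. Of the 10 Schwann cell and fibroblast markers 4 were higher in BE(2)-C with DMSO and 1 with JQ1, beside 6.71% and 12.4% of all genes. Only 1 marker, DCN, had a called change, and 1 was kept.

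Some kept differences shrank or grew. Of the 34 kept genes with a called change, 19 shrank and 15 grew, and 13 of those that shrank were higher in Kelly. MAOA, which degrades monoamines, read 11.86, 12.02 and 11.06 in Kelly with DMSO and 8.73, 8.41 and 7.81 with JQ1, and 6.07, 5.64 and 5.63 and 5.74, 5.85 and 5.84 in BE(2)-C. The Kelly arrays stayed above every BE(2)-C array, but the difference went from 58.4-fold to 5.7-fold (-5.87 to -2.51, change adjusted p = 0.00348, limma). TUBA1C, an alpha-tubulin, went the opposite way. It read 12.39, 12.20 and 12.31 in Kelly with JQ1, little below its DMSO values of 12.71, 12.73 and 12.47. In BE(2)-C it fell from 9.14, 9.39 and 9.63 to 6.16, 6.47 and 5.48, and the difference grew from -3.25 to -6.26 (change -3.02, SE 0.32, limma adjusted p = 0.00246). Tubulin genes are near copies, so the probe set may read related transcripts. IGFBP5, which binds insulin-like growth factors, fell by 4.56 in Kelly and by 1.79 in BE(2)-C on its brightest probe set, and its difference went from 2.04 to 4.81. Its other 5 probe sets had no called change, and the change was not called with the probe sets averaged, so it holds for 1 probe set of the gene.

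RET, the receptor tyrosine kinase for the GDNF family, was higher in BE(2)-C with both treatments. It read 9.20, 8.99 and 8.42 in Kelly with JQ1 and 11.77, 11.74 and 11.68 in BE(2)-C, against 10.53, 10.59 and 10.10 and 11.18, 11.30 and 11.37 with DMSO. Kelly fell by 1.54, and the difference went from 0.87 to 2.86 (limma adjusted p of the change 0.0131). Leaving out Kelly DMSO replicate 1, BE(2)-C DMSO replicate 2, BE(2)-C JQ1 replicate 1 or BE(2)-C JQ1 replicate 2 took the change past the threshold, to at most 0.0573. A further probe set of RET had a called change of 1.55. The related receptor genes split. ALK, a kinase mutated in some neuroblastomas, was higher in Kelly, at -1.44 with JQ1 and -1.41 with DMSO, as were KITLG, the ligand of KIT, at -4.79 and FGFR2 at -2.04. EGFR and INSR, the receptors of epidermal growth factor and insulin, were higher in BE(2)-C, at 1.96 and 2.43. Of the 27 genes of this group 5 were called higher in BE(2)-C and 7 higher in Kelly with JQ1 (44.4% called, beside 22% of all genes). With DMSO the counts were 6 and 7, where 14.2% of all genes were called. The Kelly count with JQ1 was 4 without Kelly JQ1 replicate 3.

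In 6 further genes the difference changed in every alternative; these genes fall outside the rule for named genes and were chosen after their values were seen. In TNS3, TESC, HS6ST2 and PRSS21 a Kelly-side difference shrank, in turn from -4.22, -3.35, -4.62 and -3.51 to -0.94, -0.88, -2.15 and -1.50. TNS3 encodes a tensin of focal adhesions, and HS6ST2, like HS3ST4, a heparan sulfate sulfotransferase. In RIN2 and ARL9, regulators or members of small GTPase families, a BE(2)-C-side difference shrank, from 3.64 to 1.40 and from 3.47 to 0.93. The JQ1 difference of TNS3 was uncalled in 5 of 12 fits with 1 array left out. Its dimmer probe sets had DMSO differences of -0.11 and -0.41 and uncalled changes of -0.34 and 0.32. The dimmer probe sets of HS6ST2 and RIN2 had no called change either.

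Annexins, S100 proteins, galectins and intermediate filaments stood on the BE(2)-C side. With JQ1, 15 of 28 measured were higher in BE(2)-C and 2 higher in Kelly, beside 12.4% and 9.63% of all genes, with a median difference of 0.98 against -0.15. With DMSO 11 and 2 were called, beside 6.71% and 7.47% of all genes. The list was chosen with earlier results of these data known, so these shares are a description and no test. S100A6, a calcium-binding protein, read 5.62, 6.05 and 5.99 in Kelly and 11.84, 11.92 and 11.87 in BE(2)-C, a 63.6-fold difference (5.99, SE 0.28, limma adjusted p = 5.98e-08). LGALS1, galectin-1, read 7.03, 7.27 and 6.47 in Kelly and 12.76, 12.66 and 13.03 in BE(2)-C, at 5.90. VIM, the mesenchymal filament vimentin, read 10.32, 9.95 and 8.95 in Kelly and 13.15, 13.29 and 13.21 in BE(2)-C, and was apart by 3.48 with JQ1 and 1.62 with DMSO, a change that did not pass (limma adjusted p = 0.165). ANXA2 and S100A11 were at 4.95 and 5.36. ANXA2P2, a pseudogene copy of ANXA2 whose probes cannot be told apart from it with certainty, was at 6.75. ANXA11, an annexin, was gained, at 1.69 with JQ1 and -0.02 with DMSO; its change was not called in 9 of the 12 fits with 1 array left out (limma adjusted p up to 0.157). Among the called members, KRT19 and S100B are also the epithelial and Schwann cell markers named above. The exceptions were NES, the progenitor filament nestin, at -1.86, and S100A13 at -1.47. Counts stayed between 14 and 16 higher in BE(2)-C, and 2 and 4 higher in Kelly, in every alternative.

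**Figure D4:**
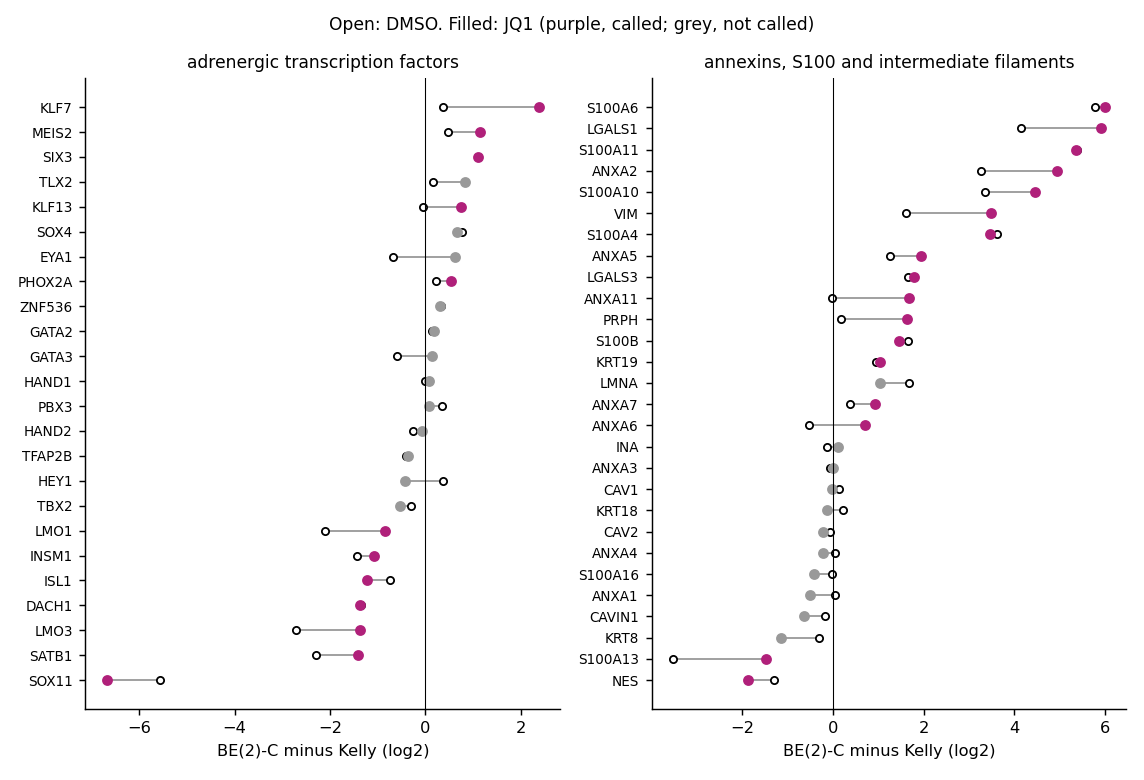
BE(2)-C minus Kelly (log2) for the adrenergic transcription factors and for the annexins, S100 proteins and intermediate filaments, open circles with DMSO and filled circles with JQ1, purple where limma called the JQ1 difference. SOX11 lies at -6.68 and KLF7 at 2.38 with JQ1, and S100A6, LGALS1 and S100A11 lie above 5.

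The adrenergic transcription factors did not stand on 1 side. With JQ1, 5 of 24 were higher in BE(2)-C and 7 higher in Kelly, 50% called beside 22% of all genes. With DMSO the counts were 2 and 8, where 14.2% of all genes were called. Their median was 0.07 with JQ1 and took the other sign, -0.18, with quantile normalization. On the Kelly side, besides SOX11, stood ISL1, a factor of sympathetic development, at 10.73, 10.81 and 10.33 in Kelly and 9.40, 9.52 and 9.27 in BE(2)-C. That difference of -1.23 (limma adjusted p = 0.000642) was -0.75 with DMSO. INSM1, a zinc finger factor of neuroendocrine cells, was at -1.09, DACH1 at -1.37, and the cofactor LMO1 at -0.85 after -2.11 with DMSO, a change that did not pass (limma adjusted p = 0.0864). On the BE(2)-C side stood KLF7, MEIS2, a homeobox factor, at 1.14 and SIX3, another, at 1.11. GATA3 and HAND2 were not called, at 0.15 and -0.07. PHOX2A was called at 0.54 but missed the threshold when any of the JQ1 arrays but Kelly JQ1 replicate 1 was left out (limma adjusted p up to 0.0901). MYCN itself read 13.58, 13.47 and 13.55 in Kelly and 13.31, 13.16 and 13.23 in BE(2)-C with JQ1, and its difference of -0.29 was not called (limma adjusted p = 0.106).

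The enzymes of catecholamine metabolism differed in opposite directions. DBH, which makes noradrenaline from dopamine, read 10.96, 11.23 and 11.25 in Kelly with JQ1 and 9.05, 8.76 and 9.29 in BE(2)-C, a 4.33-fold difference (-2.11, limma adjusted p = 0.000122). DDC, which makes dopamine, read 10.46, 10.22 and 9.98 in Kelly and 11.24, 11.24 and 11.25 in BE(2)-C, at 1.02 with JQ1 and 0.12 with DMSO. The change of DDC did not pass (limma adjusted p = 0.192). TH, the first enzyme of the pathway, overlapped between the lines with JQ1, at 7.05, 7.24 and 7.75 in Kelly and 7.70, 7.83 and 8.12 in BE(2)-C, and was not called. Of 13 genes of the group (38.5% called, beside 22% of all genes), 3 were higher in BE(2)-C and 2, DBH and MAOA, higher in Kelly, the latter 4 with the control signal as a covariate.

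Of 36 measured receptors for transmitters and peptides 4 had a called change, where 0.43% of all genes had one. The list was chosen with earlier results of these data known, so this is a description and no test. With JQ1, 9 of 36 were higher in BE(2)-C and 3 higher in Kelly (33.3% called, beside 22% of all genes). With DMSO the counts were 3 and 4, beside 6.71% and 7.47% of all genes. Besides OPRL1 and P2RX5 the changed members were HTR3A, a serotonin-gated channel, and the nicotinic subunit CHRNA3. The Kelly-side difference of HTR3A went from -2.72 to -0.61, and CHRNA3 was at -0.40 and then 0.94. Both changes were lost in 9 of the 12 fits with 1 array left out. NPY2R, a receptor of neuropeptide Y, was higher in BE(2)-C with both treatments, at 4.05 with JQ1, where it read 4.17, 4.28 and 4.25 in Kelly and 8.59, 8.46 and 7.80 in BE(2)-C. GRIA2, a glutamate receptor subunit, was higher in Kelly, at -3.23. The BE(2)-C count was 5 without Kelly JQ1 replicate 2 or BE(2)-C JQ1 replicate 2. The Kelly count was 1 without Kelly JQ1 replicate 3 or any BE(2)-C JQ1 array, and 5 without Kelly DMSO replicate 3.

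Among genes of DNA replication and mitosis more were called higher in Kelly than in BE(2)-C with JQ1, and most were not called. Of 47 measured, 14 were higher in Kelly and 2 higher in BE(2)-C (34% called, beside 22% of all genes), with a median of -0.29 beside -0.15 for all genes. With DMSO 4 were higher in Kelly and 3 in BE(2)-C, beside 7.47% and 6.71% of all genes. No change of a member's difference was called. MCM10, a replication factor, read 10.31, 10.39 and 10.75 in Kelly and 8.98, 8.87 and 8.61 in BE(2)-C, at -1.66 (limma adjusted p = 9.03e-05) after -0.72 with DMSO. CDT1, which licenses origins, was at -1.35 with JQ1 and -0.12 with DMSO, and its change did not pass (limma adjusted p = 0.188). RFC4, a clamp loader subunit, was at -1.24, and CENPE, a mitotic kinesin, was on the other side at 2.17. With DMSO, 8 of 48 MYC target genes were higher in Kelly and 2 in BE(2)-C, where 14.2% of all genes were called. With JQ1 the counts were 9 and 1, a share of 20.8% called that is near the 22% of all genes. Among them were LDHA, lactate dehydrogenase A, at -3.83 with JQ1 and -3.65 with DMSO, and RRP12, a ribosome assembly factor, at -1.41. The Kelly-higher counts of these lists were 10 to 15 and 6 to 15 when 1 array was left out, and 22 and 18 with quantile normalization. The MYC target count was 15 without Kelly JQ1 replicate 3, 17 with the control signal as a covariate and 25 without the 3 arrays of highest control signal. With probe sets averaged the median of the replication list was -0.05, beside -0.14 for all genes.

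In the chromatin, oncofetal and p53 target lists more members were called higher in Kelly than in BE(2)-C, where 9.63% and 12.4% of all genes were. Of 33 chromatin genes, 9 were higher in Kelly and 2 in BE(2)-C (33.3% called, beside 22% of all genes); EZH2, the methyltransferase of polycomb complex 2, read 10.88, 10.66 and 10.41 in Kelly and 8.86, 9.06 and 8.54 in BE(2)-C, at -1.83 (limma adjusted p = 6.02e-05). Of 14 oncofetal genes, 7 were higher in Kelly and none in BE(2)-C (50% called), among them the RNA-binding protein IGF2BP1 at -2.42. SALL4, a factor of embryonic stem cells, shrank on its Kelly side from -3.33 to -1.78, a change lost in 10 of 12 fits with 1 array left out. Of 28 BCL2 family and p53 target genes, 7 were higher in Kelly and 1 in BE(2)-C (28.6% called), with GADD45A, a DNA damage response gene, at -1.99. The Kelly-higher counts fell to 5 chromatin genes and to 4 p53 and BCL2 genes without BE(2)-C JQ1 replicate 1 or 2, and to 3 or 4 oncofetal genes without Kelly JQ1 replicate 2 or 3 or any BE(2)-C JQ1 array. Without the 3 arrays of highest control signal they were 15 chromatin genes and 11 p53 and BCL2 genes. Of the CDK inhibitors, CDKN1A was on the Kelly side at -1.48 and CDKN2A, which holds back CDK4 and CDK6, on the BE(2)-C side at 3.03.

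**Figure D5:**
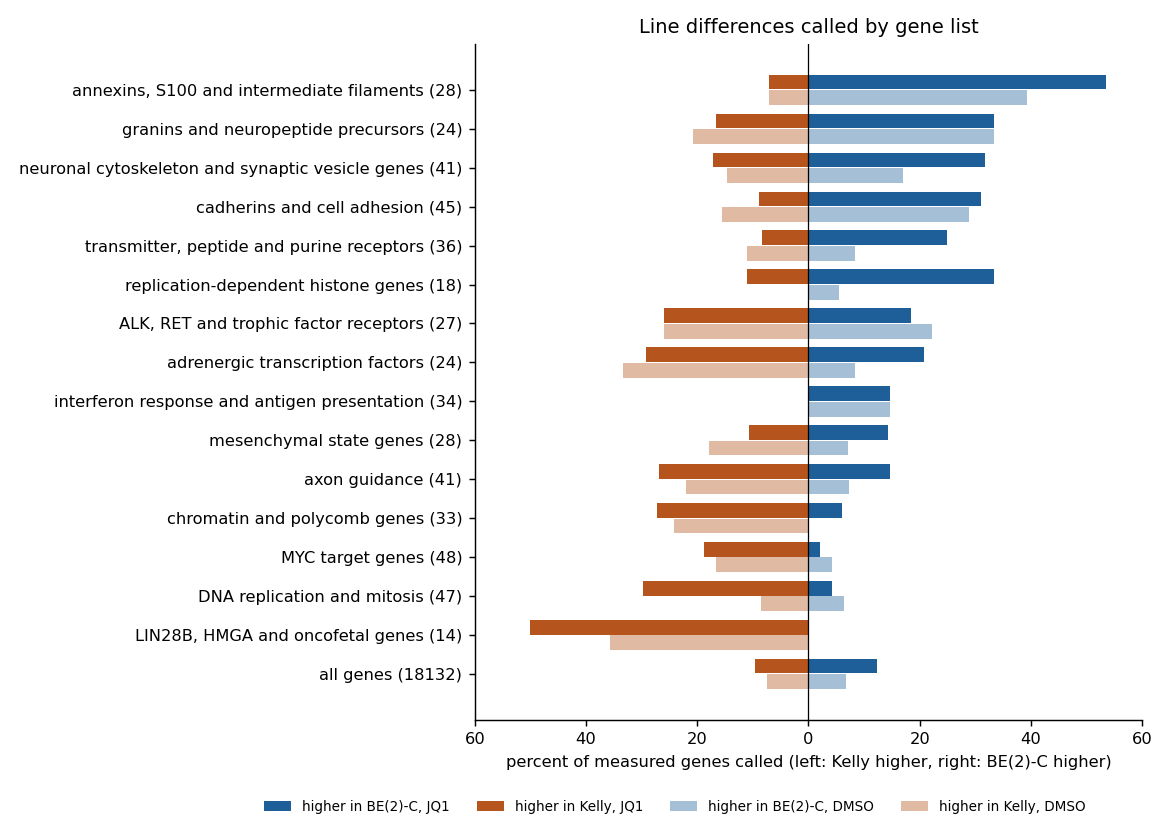
Percent of the measured genes of each list called higher in Kelly (left) or higher in BE(2)-C (right), dark with JQ1 and light with DMSO, with the number measured in brackets and all 18132 genes at the bottom. The annexin and S100 list reaches furthest on the BE(2)-C side, with 15 of 28, and the oncofetal list furthest on the Kelly side, with 7 of 14. The lists were chosen with earlier results of these data known.

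Adhesion, cytoskeletal and vesicle genes were more often called higher in BE(2)-C, with exceptions. Of 45 cadherins and adhesion genes, 14 were higher in BE(2)-C and 4 in Kelly (40% called, beside 22% of all genes). With DMSO the counts were 13 and 7, where 14.2% of all genes were called. The Kelly count with JQ1 was 10 without the 3 arrays of highest control signal. PCDH10, a protocadherin, was at 3.33, NRCAM, an axonal adhesion protein, at 2.95, and PCDH19, another protocadherin, at -2.67. Of 41 neuronal cytoskeleton and vesicle genes, 13 were higher in BE(2)-C and 7 in Kelly (48.8% called), with the neurofilament light chain NEFL at 2.83 and the heavy chain NEFH at -2.36. NEFL read 10.09, 9.88 and 9.53 in Kelly and 12.71, 12.78 and 12.51 in BE(2)-C with JQ1, and NEFH 10.46, 10.37 and 10.23 and 7.97, 8.07 and 7.94, so the filament subunits of 1 family stood on opposite sides without overlap. Of 28 mesenchymal state genes, 4 were higher in BE(2)-C and 3 in Kelly, 25% called and near the 22% of all genes. SNAI2, a repressor of cadherins, was at 2.98 and FN1, fibronectin, at -3.95. The BE(2)-C count of that list was 2 without BE(2)-C JQ1 replicate 2. The extracellular matrix list held 8 and 5 of 45 (28.9% called), with the gelatinase MMP2 at 1.99 and the laminin LAMA1 at -4.58; its Kelly count was 3 without BE(2)-C JQ1 replicate 1 or 2 and 8 without Kelly DMSO replicate 3 or BE(2)-C DMSO replicate 1. Of 34 interferon and antigen presentation genes, 5 were higher in BE(2)-C (14.7%, near the 12.4% of all genes) and 0 higher in Kelly, the latter 0 to 2 over the alternatives, with HLA-C at 2.01 and B2M, its light chain, at 1.19.

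Further genes of the lists were far apart as single members. ABCB1, the drug efflux pump, read 5.95, 6.16 and 6.02 in Kelly and 9.40, 9.51 and 9.72 in BE(2)-C with JQ1, a difference of 3.50 (SE 0.24, limma adjusted p = 1.82e-06), and 3.48 with DMSO. KLF2, a zinc finger factor of the immediate-early list, was at 4.50 with JQ1 after 2.87 with DMSO and rose in BE(2)-C by 2.16; its change was lost in 9 of 12 fits with 1 array left out. KCNT1, a sodium-activated potassium channel, was at 4.96 and SOX18, a factor of vessel development, at 3.47. HOXD13 was at -2.57 on the Kelly side, and of 27 HOX genes 1 was higher in BE(2)-C and 2 in Kelly (11.1% called, beside 22% of all genes). BMP7, a bone morphogenetic protein, was at -4.74 with JQ1 and -6.09 with DMSO, and LGR5, a WNT pathway receptor, at 2.23 and 3.97.

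Line differences were spread unevenly over the chromosomes. On chromosome 15, 22% of 536 genes were higher in BE(2)-C with JQ1 and 5.97% higher in Kelly, and on chromosome 14 the shares were 20.5% and 5.96%, beside 12.4% and 9.63% over all genes. On chromosome 9 they were 21.5% and 9.25%. On chromosome 22 the order turned, with 5.22% higher in BE(2)-C and 15.7% higher in Kelly, and likewise on chromosome 1 with 6.11% and 14.2% and on chromosome 3 with 8.91% and 14.6%. With DMSO chromosome 1 held 51 genes higher in BE(2)-C and 240 higher in Kelly, and chromosome 15 held 56 and 26. Copy number was not analysed here.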

How the data were processed

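Total RNA of Kelly and BE(2)-C cells was read on 12 Affymetrix PrimeView arrays, 3 for each line and treatment. The authors deposited 1 linear intensity per probe set and array, normalized with RMA per the submitters' processing notes; the version of RMA was not given in the sources used here. The design had assumed log2 values, so log2 of the intensity was taken first. Of 49395 rows, 102 controls, 1832 probe sets naming several genes and 2473 naming none were left out. limma 3.58.1 in R 4.3.3 was fitted to 44988 probe sets over all 12 arrays, with 1 mean per group. P-values were adjusted over all probe sets, and each gene was read from its brightest probe set. A difference was kept, lost, gained or reversed by its calls with DMSO and JQ1. Lost and gained also needed a called change. Reversed did not need it, but all 4 reversed genes of the main fit had it. The fit was run on simulated arrays, scored only for the line difference with JQ1. The change of the difference and the 4 classes were not scored there. Members and the 35 gene lists were chosen with earlier results of these data known.

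Named genes were first the 10 highest and 10 lowest with JQ1 among called genes whose arrays did not overlap between the lines. Others were 8 per direction among kept, lost and gained differences, up to 8 reversed, and up to 4 members per direction of each list. CHGA, HAND2, GATA3, PTPRC, TH, MYCN and CHRNA3 were named outside this rule. Alternatives changed the normalization, filter, offset, probe sets, prior, covariate, pairing or arrays. Replicate numbers of DMSO and JQ1 arrays went together in Kelly (correlations of deviations 0.42, 0.227 and 0.509), a pairing seen in the data and not stated in the labels; the block was applied there to the change of the difference. Promoters came from RefSeq tables.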

Additional observations from a re-analysis of the deposited data

Results flagged for a closer look

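The line difference of 78 genes with JQ1 was not the one with DMSO by limma's test of the change itself, each at an adjusted p below 0.05. The value given for each gene is that change, the difference BE(2)-C minus Kelly with JQ1 less the same with DMSO, on the log2 scale.

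Among kept differences, those higher in Kelly that shrank were SST 3.50, MAOA 3.36, TNS3 3.28, CARTPT 2.99, TESC 2.47, HS6ST2 2.47, FIGNL2 2.23, PCDHB5 2.20, PRSS21 2.01, PHLDB2 2.01, MPPED2 1.82, CELF2 1.80 and SALL4 1.55. Those higher in BE(2)-C that shrank were ARL9 -2.54, RIN2 -2.24, SGK1 -1.97, CRYGD -1.77, PCDH9 -1.77 and LRRC17 -1.73. Differences higher in BE(2)-C that grew were ANXA2P2 3.14, IGFBP5 2.77, ZBTB38 2.20, RET 1.99, TSPO 1.93, PRSS3 1.82, PCOLCE 1.79, PLCB1 1.78, HBP1 1.65, ASS1 1.63, KLF2 1.63 and TMEM42 1.50, and those higher in Kelly that grew were TUBA1C -3.02, ZNF503 -1.41 and SERPINE2 -1.39.

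Differences lost on the Kelly side were HS3ST4 2.58, TG 2.40, TP53INP1 2.31, YPEL2 2.29, PCDHB10 2.12, HTR3A 2.11, ZBTB20 2.09, SLC38A5 2.08, DOC2B 1.71, CCDC177 1.46, ZHX2 1.35, PARP3 1.22 and EFNB3 1.11. Those lost on the BE(2)-C side were TSPAN8 -3.33, FGL1 -3.04, PPEF1 -2.89, ENG -2.13, MBOAT4 -2.04, DCN -1.95, MFAP4 -1.76, TMEM204 -1.49 and ADAMTS1 -1.41. Gained differences were SLC66A3 2.65, H3C10 2.47, RBKS 2.30, H2BC21 2.21, KLF7 2.02, P2RX5 1.93, CACNA2D2 1.91, MGAT4B 1.75, ANXA11 1.71, ARL6IP5 1.67, PNRC1 1.65, ABR 1.61, FAM241A -1.61, DKK3 1.50, PPARA 1.41, OCEL1 1.38, PRIMA1 1.36 and CHRNA3 1.34. The reversed genes were OPRL1 3.85, RIMBP2 2.38, MAML3 1.45 and BNIP3L 1.18. Of all 78, 18 kept the call in every alternative and 22 in every fit with 1 array left out.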

How the results depend on the processing

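Leaving out 1 array gave 2316 to 5037 genes called with JQ1, 1784 to 2969 with DMSO, 22 to 163 for the change of the difference, 1329 to 2175 kept, 7 to 42 lost, 1 to 36 gained and 1 to 11 reversed. The control signal as a covariate gave 4616 genes called with DMSO, 493 changed, 2926 kept, 146 lost, 150 gained and 30 reversed. Without the 3 arrays of highest control signal, an alternative chosen after seeing the data, there were 6273 called with JQ1, 3896 with DMSO, 352 changed, 2954 kept, 74 lost, 88 gained and 24 reversed. Probe sets with a mean log2 value of at least 6 gave 48 changed, 11 lost and 10 gained genes, where fewer genes were tested. An offset of 32 before log2 gave 120 changed, 28 gained and 7 reversed. Quantile normalization gave 9 reversed, a trended and robust prior 2 reversed, and leaving out _s_at and _x_at probe sets 9 gained. The cause of these moves was not tested. Same-numbered arrays deviated together between DMSO and JQ1 in Kelly, but not in BE(2)-C (correlations -0.0354, 0.537 and -0.749) nor between the lines with JQ1 (-0.0333, 0.164 and 0.275). A replicate block within Kelly, chosen after seeing the data, gave 137 changed genes and lost ABR and TMEM42 of the 78. A replicate block across all 12 arrays gave 3948 genes called with JQ1, 2466 with DMSO and 59 changed, and lost 23 of the 78. Without _s_at and _x_at probe sets the JQ1 difference turned to -0.16 in ZEB2, -0.44 in ROR2, -0.17 in IGFBP7, -0.04 in HDAC4, -0.39 in ABR and -0.82 in PPARA, and the change to -0.05 in ABR, -1.48 in CELF2, -0.41 in MPPED2, -0.53 in PHLDB2 and -0.69 in PPARA. With probe sets averaged the JQ1 difference turned to -0.05 in MAML3, 0.73 in CDKN2B and -0.11 in HDAC4. Of 240 named genes called with JQ1, 181 kept direction and call in every alternative. With 3 arrays a group, and levels near background in 1 line for many of the widest differences, the number of arrays and the background limit the precision.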
